A study of Mus musculus with 12 samples.

Results

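Astrocytes are the star-shaped glia of the brain, and the 10 genes described here are widely used to recognise them: Gfap, Aqp4, Aldh1l1, S100b, Gja1, Glul, Apoe, Sox9, Aldoc and Slc4a4. The genes were taken from a fixed list of names, chosen with earlier results of these data known. All 10 matched 1 protein-coding gene each among the 21887 on mouse chromosomes 1 to 19, X and Y. The data were 2 ChIP-seq peak lists (sequencing of DNA recovered with an antibody from crosslinked chromatin) from the dorsal hippocampus of C57BL/6J mice, made with a pan-Kcr antibody against crotonylated lysine, out of 12 libraries in the series. The learning library represents mice after training for spatial object recognition, a test of memory for where objects stand, the homecage library mice left in their home cage, and age, sex and the number of pooled animals are not given for either. Each condition had 1 antibody library, so a difference between the lists has no replicate check and no test, and each comparison below describes these 2 libraries. A member's window is its gene body plus 10 kb beyond each end, in GRCm38 (mm10) coordinates, and a peak belongs to a window that it overlaps by at least 1 bp.

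Lysine crotonylation is an acyl mark placed on histones, and also on other proteins, by acyltransferases that use crotonyl-CoA in place of acetyl-CoA. On histones it is known from the starts of active genes, often beside acetylation. Astrocytes clear glutamate from synapses, convert it to glutamine, buffer ions and water, and pass lactate and lipids to neurons, and the 10 genes cover these tasks. The tissue was not sorted, so a peak cannot be assigned to astrocytes, and fewer astrocytes cannot be told apart from less of the mark per astrocyte. The lists hold no expression values, so the genes were not checked as markers in these samples.

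The bases just before the annotated starts are shown for the 4 members with the widest peaks at a start, learning peaks before homecage peaks. The results for these 4 genes include peaks at these starts. Each line gives the 250 bases before a RefSeq start (GRCm38.p6), read 5′ to 3′ on the strand of the gene. Capitals mark matches, on either strand, to 5 short motifs: TTCNNNGAA (bound by STAT factors), TTGGC (the core of a nuclear factor I site), AACAAT (SOX factors), TATAAA (the TATA box) and GGGCGG (the GC box). No matches overlapped each other in these 4 sequences. Gfap lies at chr11:102897201-102897450 on the minus strand, Glul at chr1:153899679-153899928 on the plus strand, Aldoc (the inner of its annotated starts) at chr11:78323948-78324197 on the plus strand, and Apoe at chr7:19699189-19699438 on the minus strand.
Gfap: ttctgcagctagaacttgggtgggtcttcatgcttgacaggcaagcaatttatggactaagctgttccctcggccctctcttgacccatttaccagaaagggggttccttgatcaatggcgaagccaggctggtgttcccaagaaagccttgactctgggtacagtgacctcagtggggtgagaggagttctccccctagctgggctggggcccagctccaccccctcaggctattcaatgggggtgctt
Glul: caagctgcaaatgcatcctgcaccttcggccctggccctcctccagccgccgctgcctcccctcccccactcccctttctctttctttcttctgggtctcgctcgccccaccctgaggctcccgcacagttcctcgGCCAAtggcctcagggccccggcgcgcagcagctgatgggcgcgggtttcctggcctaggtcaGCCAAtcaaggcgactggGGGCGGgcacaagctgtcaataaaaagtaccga
Aldoc: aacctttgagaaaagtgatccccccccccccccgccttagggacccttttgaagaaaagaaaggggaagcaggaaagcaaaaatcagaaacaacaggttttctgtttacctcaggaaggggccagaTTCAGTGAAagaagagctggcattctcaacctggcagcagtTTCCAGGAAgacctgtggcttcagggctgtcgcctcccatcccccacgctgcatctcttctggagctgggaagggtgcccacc
Apoe: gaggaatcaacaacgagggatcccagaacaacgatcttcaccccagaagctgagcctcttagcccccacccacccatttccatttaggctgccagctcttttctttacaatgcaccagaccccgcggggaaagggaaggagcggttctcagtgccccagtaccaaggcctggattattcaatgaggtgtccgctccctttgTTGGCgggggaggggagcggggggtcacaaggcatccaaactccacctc
The learning peak covered the 143 bases of the Gfap sequence nearest to the start, and no homecage peak reached it. The homecage list covered 197 bases of the Glul sequence and all 250 of the Aldoc and Apoe sequences, which had no learning peak. The Gfap sequence held none of the 5 motifs. Counted backwards from the start in negative positions, Glul held TTGGC beginning at -114 and -51 (as GCCAA on the strand shown) and a GC box at -33. Aldoc held the STAT motif at -124 and -83, and Apoe held TTGGC at -49.

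Each of the 10 genes had a homecage peak in its window, and 5 had a learning peak: Gfap, Glul, Aldh1l1, Aldoc and Slc4a4. Among all protein-coding genes, 93.8% had a homecage peak and 35.4% a learning peak in such a window. In the 11985 genes whose windows were within the range of the 9 members other than Slc4a4, these shares were 95.1% and 32.7%. The learning share of the members, 50% (exact Clopper-Pearson 95% interval 18.7 to 81.3%), therefore included the background. The member windows held 8 learning and 113 homecage peaks, and the long gene Slc4a4 alone supplied 4 and 67 of them. The full lists held 16002 and 331236 peaks on these chromosomes, a ratio of 20.7. The 5 members without a learning peak were Aqp4, S100b, Gja1, Apoe and Sox9. Their nearest learning peaks lay 325, 15.7, 84.7, 13.7 and 152 kb from the gene, in that order.

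**Figure D1:**
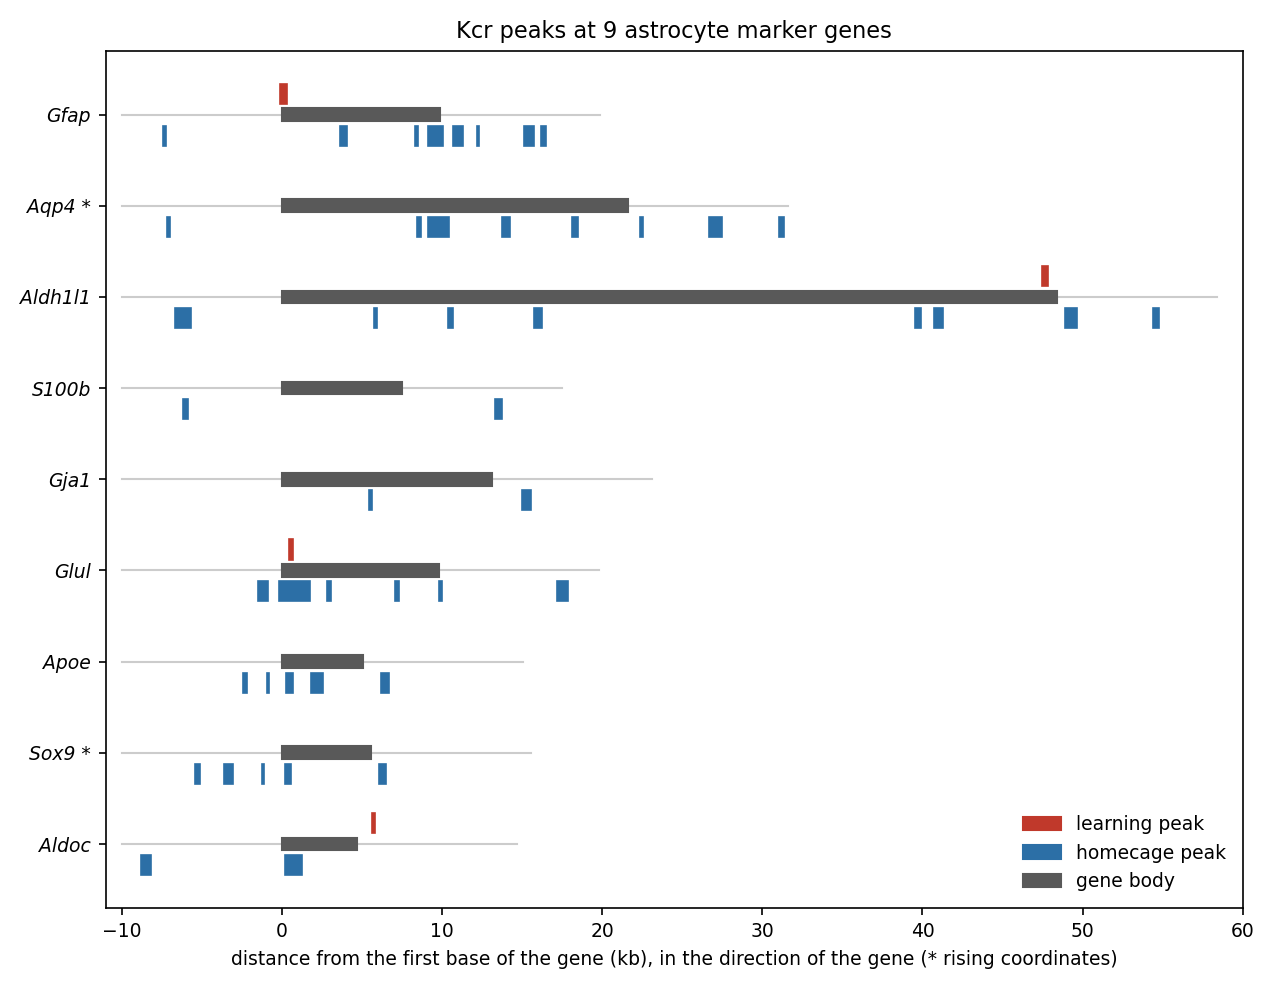
Positions of learning peaks (red) and homecage peaks (blue) along 9 members, in kb from the first base of the gene, with the gene body in grey and the window as a thin line. Aqp4 and Sox9, marked by an asterisk, are drawn by rising coordinates. The Gfap learning peak lies over the start where the homecage list has none, and the Glul learning peak lies inside a 1982 bp homecage peak.

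The lists overlapped at 1 place in the member windows, at Glul. The Glul peak was 1 of 8 learning peaks (12.5%, 95% interval 0.316 to 52.7%), against 47.4% overlapping among the 9917 learning peaks in all protein-coding windows, a value inside that interval. Of the 113 homecage peaks, 1 overlapped a learning peak (0.885%, 0.0224 to 4.83%), against 2.69% in all protein-coding windows. These shares were 25% and 2.17% without Slc4a4, and 30% and 2.08% with 20 kb beyond each gene end, all within the intervals above. The other 7 learning peaks lay 735 to 7600 bp from the nearest homecage peak, with a median of 2163 bp. Over all protein-coding windows that median was 1397 bp for the 5215 learning peaks without an overlap. At the level of genes, 1 of the 5 members with a learning peak had an overlapping pair, and the background was 59.5% of the 7750 protein-coding genes with a learning peak, or 21.1% of all protein-coding genes. For genes with a learning peak in other lists, a pair was present at 5 of 8 further astrocyte and 2 of 5 oligodendrocyte genes. It was present at 1 of 2 microglia, 1 of 5 neuron and 0 of 3 endothelial genes. These shares were not tested.

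Gfap, which encodes the intermediate filament of astrocytes, had 1 learning and 8 homecage peaks in a window of 29.9 kb. Its learning peak (chromosome 11, 102896860 to 102897343, 484 bp) ran from 143 bp upstream to 340 bp downstream of the annotated start, and 17.4% of all learning peaks were at least as wide. Within 1 kb of a start, 2875 of 17492 protein-coding genes in the promoter table had a learning peak, and 775 (4.43%) had one so wide. The shares of the Gfap peak are partly lowered by selection, as it was the widest of the 8 learning peaks in member windows. The nearest homecage peak, 389 bp wide, lay 3313 bp away inside the gene, and the widest, 926 bp (102887147 to 102888072), lay across the opposite end, where the gene stops. The start of Gfap was thus marked in the learning list and its 3′ end in the homecage list. A learning peak at a start without a homecage peak within 1 kb of it was found at 2.4% of the 17492 protein-coding genes in the promoter table, or 14.6% of the 2875 with a learning peak at a start. The lower-coordinate end of the long noncoding RNA gene Gm34560 lies 2 bp beyond the Gfap learning peak, which does not overlap that gene. Of the 8 homecage peaks, 5 lay outside Gfap, over Eftud2, Ccdc103, Fam187a and Gm34560. With all 8 counted, those over neighbouring genes included, the Gfap window had the highest homecage density of the members. This was 26.8 peaks per 100 kb, at percentile 94.8 of all protein-coding windows.

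S100b, which encodes a calcium-binding protein released by astrocytes, was among the barest members. It had no learning peak and 2 homecage peaks of 321 and 447 bp, 5835 bp before and 5841 bp beyond the gene, and the latter lay inside the neighbouring gene Dip2a. No peak of either list touched its 7484 bp gene body, and it was the 1 member without a homecage peak in the gene body.

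Glul encodes glutamine synthetase, which converts glutamate taken up from synapses into glutamine. It had 1 learning and 6 homecage peaks. The homecage peak over the start (chromosome 1, 153899732 to 153901713) was 1982 bp wide, from 197 bp upstream to 1784 bp downstream, and was the widest in any member window. Of all homecage peaks, 0.158% were at least as wide. A homecage peak lay within 1 kb of a start at 51.5% of protein-coding genes in the promoter table, and one so wide at 0.457%. As the widest of the 113 in member windows, such a peak has small shares partly by selection. The learning peak (153900377 to 153900608) was 232 bp wide and lay wholly inside this homecage peak, 448 to 679 bp downstream of the start. The wide homecage peak also covered Mir8114, a microRNA gene at the start of Glul, and the end of the noncoding gene Gm38440. The other homecage peaks measured 616, 242, 300, 147 and 640 bp, and homecage peaks together covered 13.2% of the Glul window, the highest share among the members, against a median of 5.32% over protein-coding windows (25th to 75th percentile 3.47 to 7.44%).

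Aldoc, the aldolase C of brain glycolysis, had 1 learning and 2 homecage peaks. The homecage peak inside the gene (chromosome 11, 78323242 to 78324325, 1084 bp) began 169 bp beyond the outer annotated start and reached 127 bp past the inner one. Within 1 kb of a start, 9016 of 17492 protein-coding genes in the promoter table had a homecage peak, and 932 (5.33%) had one so wide. The learning peak (78328711 to 78328910, 200 bp) lay 930 bp beyond the end of Aldoc and inside Pigs, the neighbouring gene, so by nearest gene it belonged to Pigs. The second homecage peak, 635 bp, lay 8170 bp before Aldoc, inside Spag5.

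Aldh1l1 encodes a folate enzyme of astrocytes, and its long gene body of 48.4 kb was marked away from its start. The learning peak (chromosome 6, 90598225 to 90598582, 358 bp) lay inside the gene, 589 bp from its 3′ end, where the noncoding gene Gm15756 overlaps it. A homecage peak of 731 bp lay 1117 bp from it, 528 bp beyond the gene. The widest of the 8 homecage peaks, 950 bp, lay 5700 bp before the gene, and none of either list lay within 1 kb of the start. The homecage density, 11.7 peaks per 100 kb, was below the median of protein-coding windows, 13.7.

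Apoe, the main lipid carrier that astrocytes secrete, and Sox9, a transcription factor of the astrocyte lineage, had 5 homecage peaks each and no learning peak. At Apoe the widest homecage peak (chromosome 7, 19698760 to 19699480, 721 bp) ran from 292 bp upstream to 428 bp downstream of an annotated start. A second, of 461 bp, lay upstream of that start, 245 bp inside the higher-coordinate (5′) end of the RefSeq gene, which is 3 bp from Tomm40, and peaks of 147 and 269 bp lay inside Tomm40. At Sox9 the homecage peaks measured 305, 537, 147, 417 and 450 bp, and the 417 bp peak (chromosome 11, 112782377 to 112782793) began 167 bp inside the lower-coordinate end. Sox9 and Aqp4 have no entry in the promoter table, so their ends are named by coordinate. Apoe and Sox9 had close homecage densities, 19.9 and 19.6 peaks per 100 kb.

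Among the membrane proteins, Aqp4, the water channel of astrocyte endfeet, had 8 homecage peaks and no learning peak. Its widest homecage peak (chromosome 18, 15398544 to 15399807, 1264 bp) lay in the middle of the gene, at a place shared with the noncoding gene A830021F12Rik, and 1.19% of all homecage peaks were at least as wide. Gja1, the main gap junction connexin of astrocytes, had no learning peak and 2 homecage peaks. They measured 159 bp, inside the gene, and 537 bp, 1888 bp beyond its end. Gja1 had the lowest homecage density of the members, 6.04 peaks per 100 kb, followed by S100b with 7.28 and Aldoc with 8.09. These 3 lay below the 25th percentile of protein-coding windows, 9.54, and Gfap, Glul, Apoe, Sox9 and Aqp4 lay above the 75th, 18.1. The median density of the members was 16.8. In the other lists described below it was 15.6 for further astrocyte, 18.5 for oligodendrocyte, 12.8 for microglia, 16.3 for neuron and 17.3 for endothelial genes. Pooled, the member windows had 14.6 homecage peaks per 100 kb, beside 13.6 over all protein-coding windows.

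**Figure D2:**
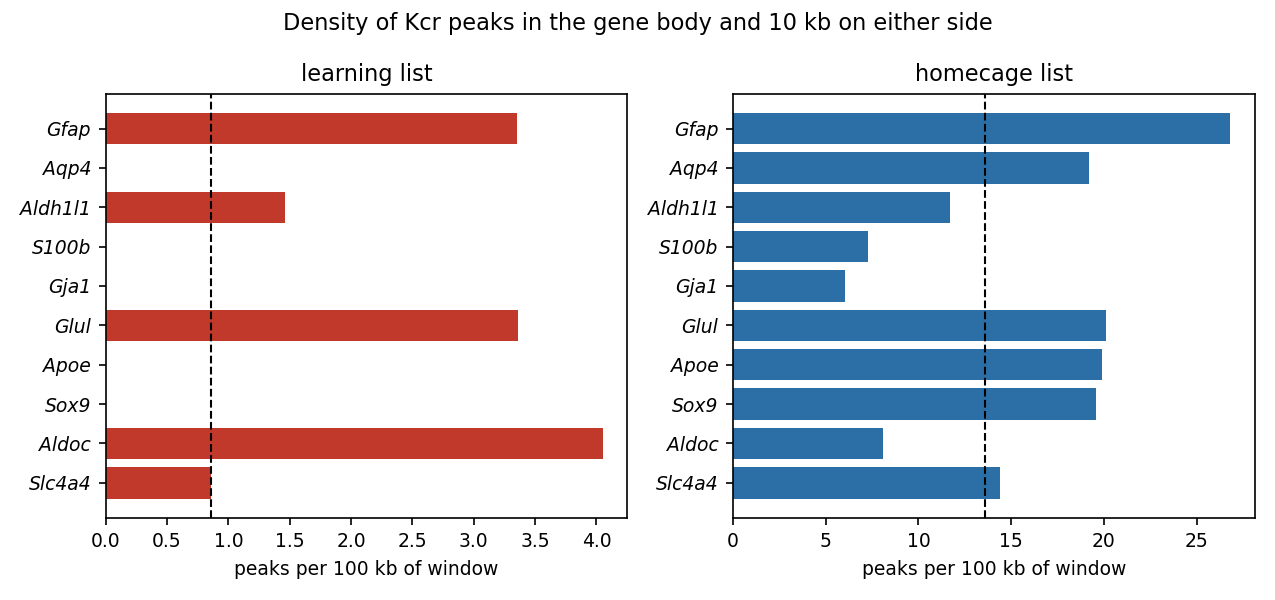
Number of peaks per 100 kb of window for each member, in the learning list (left) and the homecage list (right, on another scale). The dashed line is the value over all protein-coding windows pooled, 0.857 for learning and 13.6 for homecage; Aldoc, Glul and Gfap lead the learning list with 1 peak each in short windows, and Gfap leads the homecage list.

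Slc4a4 encodes a sodium bicarbonate cotransporter that helps astrocytes to regulate pH. Its RefSeq gene spans 446 kb, and 4 learning and 67 homecage peaks lay in its window. Per 100 kb these were 0.859 and 14.4 peaks, beside 0.857 and 13.6 over all protein-coding windows pooled. The learning peaks measured 341, 203, 399 and 435 bp (the last at chromosome 5, 88993663 to 88994097), and none overlapped a homecage peak. Over 4 equal parts of the gene from the lower-coordinate end, the learning list had 2, 2, 0 and 0 peaks and the homecage list 15, 18, 15 and 16. The 4 learning peaks lay in the lower-coordinate part of the gene, and so few peaks cannot show a preference for it. The homecage peaks were spread along the gene, with a median gap of 4.31 kb and a longest gap of 29.8 kb. Homecage peaks of at least 1000 bp numbered 5 in this window, the widest being 1679 bp (89080696 to 89082374). At the first of its annotated starts in the promoter table, which lies in a CG-rich stretch, a 642 bp homecage peak ended 1210 bp downstream, and neither list had a peak within 1 kb of the other start. Both listed starts, at 88887260 and 89027966, lie inside the RefSeq gene. Its lower-coordinate (5′) end, at 88793858, has no entry in the promoter table.

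**Figure D3:**
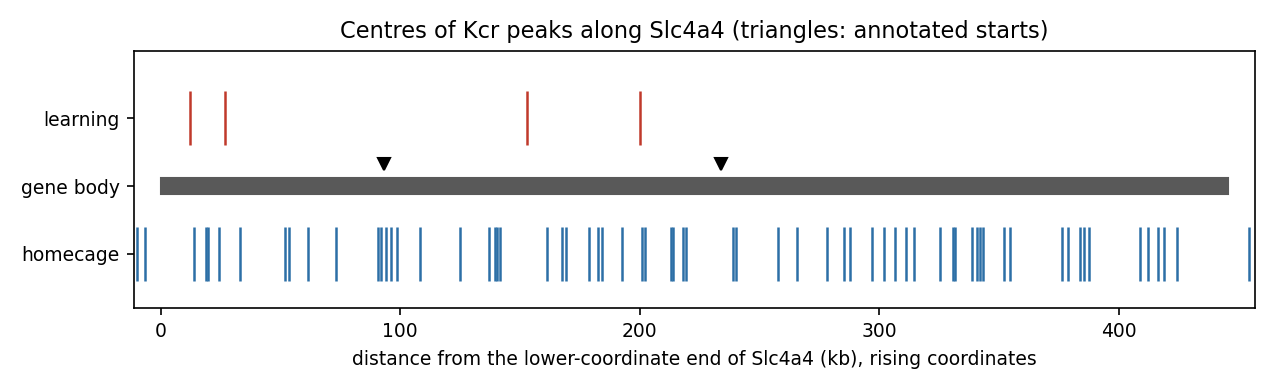
Centres of the 4 learning (red) and 67 homecage (blue) peaks along Slc4a4, in kb from its lower-coordinate end, with annotated starts as triangles. The learning peaks lie in the left part of the gene, and the homecage peaks along its whole length.

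Ends of genes were compared next, since histone crotonylation is known from gene starts. A peak within 1 kb of either end was present at 4 members in the learning list (Gfap, Glul, Aldh1l1 and Aldoc) and at 7 in the homecage list, beside 15.6% and 60.9% of all protein-coding genes. The members without a homecage peak there were S100b, Gja1 and Slc4a4. Of the 4 learning peaks at ends, those of Gfap and Glul lay at the start and those of Aldh1l1 and Aldoc at the 3′ end. The Aldoc peak lay inside Pigs, and the Aldh1l1 peak overlapped the noncoding gene Gm15756. Counting annotated starts alone, 2 of the 8 members in the promoter table had a learning peak within 1 kb and 4 a homecage peak (Glul, Apoe, Aldoc and Slc4a4), beside 16.4% and 51.5% of protein-coding genes. The Slc4a4 start with a homecage peak lies inside the gene, so it is not one of the gene ends counted above. With windows of 500 bp around the ends, 2 members had a learning peak. In the other lists described below, a learning peak lay within 1 kb of an end at 4 of 20 further astrocyte genes and 3 of 12 oligodendrocyte genes. No microglia, neuron or endothelial gene of those lists had one. Homecage peaks lay there at 17 further astrocyte, 9 oligodendrocyte, 8 of 12 microglia, 9 of 12 neuron and 2 of 6 endothelial genes. The count of 4 among 10 members was not tested against the background.

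The learning peaks of the members were 200 to 484 bp wide with a median of 349.5 bp, and the homecage peaks 147 to 1982 bp with a median of 359 bp. The lowest of these widths, 147 bp, was also the minimum of the whole homecage list. Over all protein-coding windows the medians were 311 and 353 bp. None of the 8 learning peaks in member windows reached 500 bp, beside 17.1% of learning peaks in all protein-coding windows. With only 8 peaks, this difference was not tested. Of the 113 homecage peaks, 34 (30.1%) reached 500 bp, beside 25.6%. A minimum width of 500 bp therefore left no member with a learning peak.

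**Figure D4:**
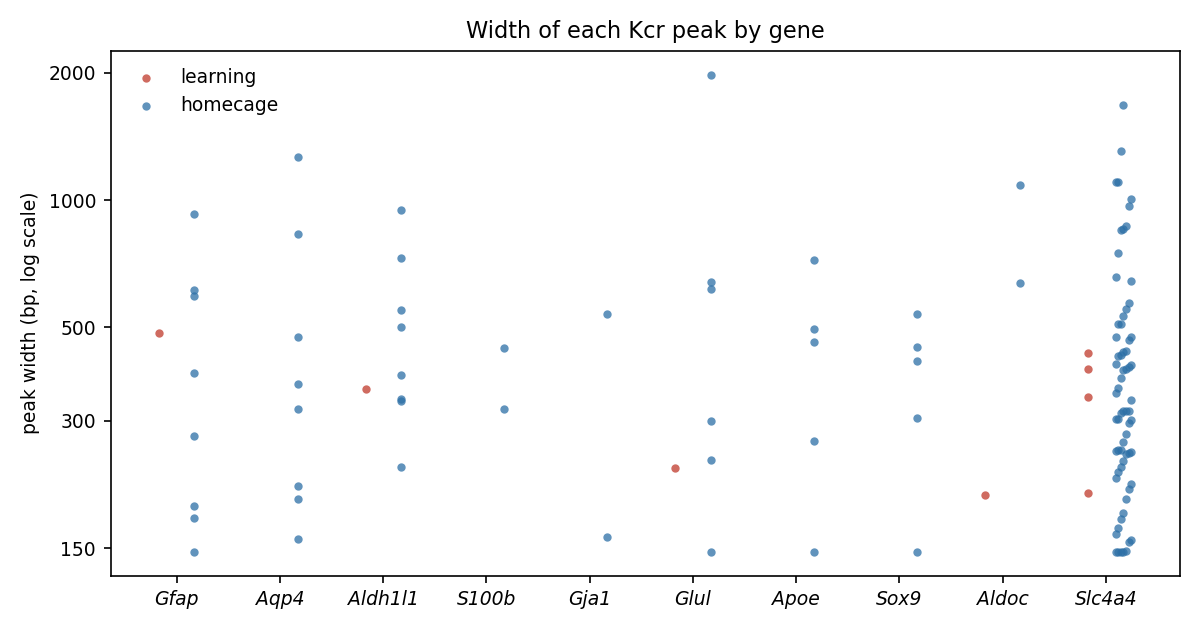
Width of each peak in bp, on a log scale, by gene, for the learning (red) and homecage (blue) lists. All 8 learning peaks lie under 500 bp, and the genes with the widest homecage peaks are Glul (1982 bp), Slc4a4 (1679 bp, with another of 1304 bp) and Aqp4 (1264 bp).

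The promoter sequences of the members were mixed in composition. The 8 members in the promoter table had 12 annotated starts. In the 250 bases before them, GC content ran from 48.8% at the higher-coordinate listed start of Slc4a4 to 82% at its lower-coordinate one. The median was 52.4% over 32851 promoters (25th to 75th percentile 45.2 to 61.2%). The number of CG dinucleotides was 44 at that lower-coordinate Slc4a4 start, 15 at Glul and 2 at both Gfap and S100b, beside a median of 6. The Gfap start with a learning peak was thus poor in CG and the Glul start richer. Of the 12 member promoters, 7 held TTGGC (41.5% of all promoters hold it), 4 GGGCGG (32.7%), 1 TTCNNNGAA, at Aldoc (7.02%), 1 TATAAA, at Apoe (12.4%), and 0 AACAAT (9.42%). These matches are descriptions of sequence, and binding was not measured.

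A further 20 astrocyte genes gave shares near those of all protein-coding genes. A learning peak was in the window of 8 of them (40%, 95% interval 19.1 to 63.9%) and a homecage peak in all 20 (100%, 83.2 to 100%). The widest learning peaks lay in Atp1b2, a sodium pump subunit (chromosome 11, 69604652 to 69605579, 928 bp), and in Cst3, which encodes the protease inhibitor cystatin C (chromosome 2, 148874861 to 148875308, 448 bp), and both overlapped a homecage peak. The glutamate transporter genes Slc1a2 and Slc1a3 had no learning peak and 19 and 13 homecage peaks. Among other cell types, a learning peak was present at 5 of 12 oligodendrocyte, 2 of 12 microglia, 5 of 12 neuron and 3 of 6 endothelial genes. A homecage peak was present at 11, 11, 12 and 6 of these. The intervals of all 6 lists included the background shares, and the lists were not tested against each other.

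**Figure D5:**
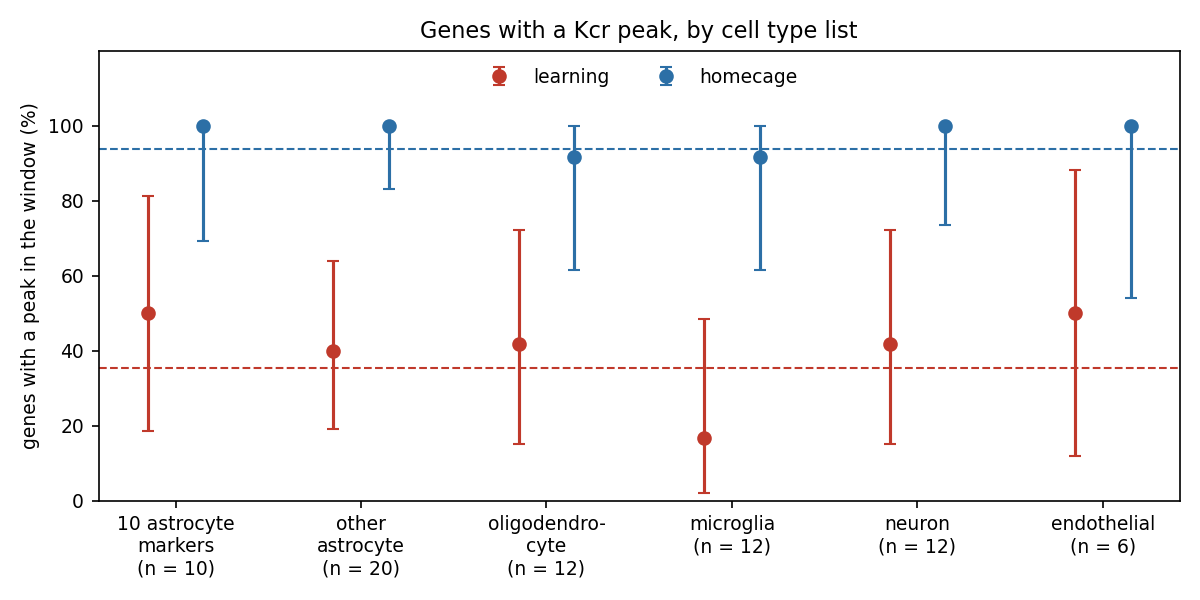
Share of genes with a learning (red) or homecage (blue) peak in the window, for the 10 members and 5 other lists, with exact 95% intervals for counting error. Dashed lines mark all protein-coding genes (35.4% and 93.8%), and each interval spans its line.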

How the data were processed

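ChIP-seq peak lists for 2 of 12 libraries were used. Each deposited file gives a chromosome, start, end and peak name, so depth is unknown and peaks cannot be ranked by strength. The submitters' processing notes name Trimmomatic, BWA, MACS2 and mm10, with no role or version. The deposited peak names state broad calling at a p-value of 0.01, per library, and use of an input as control is not given in the sources used here. Lists called at different depths can differ in length without a difference in the mark.

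Genes, starts, strands and promoter sequences came from RefSeq tables of GRCm38.p6, the assembly mm10 names. Exon structure was not used, and starts were known for 8 of 10 members. Positions are 1-based. Exact Clopper-Pearson 95% intervals cover counting error only and treat peaks or genes as independent. The members and lists were chosen with earlier results of these data known. All members are named, and in other lists the 2 genes with the widest peaks per library were eligible; Slc1a2 and Slc1a3 were added after their values were seen. Interval functions were tested on simulated peaks. Python 3.11.15 with scipy 1.17.1, pandas 2.3.3, numpy 2.4.6 and matplotlib 3.10.9 was used.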

Additional observations from a re-analysis of the deposited data

How the results depend on the processing

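No paired analysis was possible because there was 1 antibody library for training and 1 for the home cage, and for the same reason no replicate could be left out. A stricter threshold on strength was not run, since the lists as analysed hold none. Among 79 values computed again, 63 were inside the 95% interval of the reported share or median, or within 1.5 times the reported count, and 16 were not. With peaks of at least 500 bp, the learning list had 0 members with a peak, 0 peaks in the windows and 0 members with a peak at a gene end, and the homecage list had 34 peaks, a median width of 726 bp, 4 members with a peak at an end and 0% of peaks overlapping a learning peak. The homecage list reduced to its widest peaks, as many as the learning list holds, had 11 peaks at 6 members, with a median width of 1102 bp and 9.09% overlapping. Requiring each peak of a pair to be covered by 50% or more left 0% shared in both lists (95% interval up to 36.9% of learning and 3.21% of homecage peaks). Windows of 500 bp around gene ends left 2 members with a learning peak. Without Slc4a4, a choice made after the data were seen, the windows held 4 learning and 46 homecage peaks, and 25% and 2.17% of them overlapped the other list. A flank of 20 kb gave 30% and 2.08%.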

Other observations

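The widest peaks at genes of the other cell types were as follows. The myelin gene Mbp had the widest learning peak of the oligodendrocyte list (chromosome 18, 82535770 to 82536484, 715 bp), which overlapped a homecage peak, and also its widest homecage peak (1464 bp). Among neuron genes the widest learning peak lay in Map2, a dendritic microtubule protein gene (chromosome 1, 66271987 to 66272698, 712 bp), and the widest homecage peak in Rbfox3, which encodes the neuronal nuclear antigen NeuN (1388 bp). In the microglia list the widest learning peak, 286 bp, lay 6375 bp outside Aif1, which encodes a calcium-binding protein of microglia, and overlapped no homecage peak. A learning peak of 280 bp lay in the fractalkine receptor gene Cx3cr1 and overlapped a homecage peak, and the widest homecage peak of that list, 1260 bp, lay 2012 bp outside Itgam, an integrin gene. Among endothelial genes, Tek, an angiopoietin receptor, held the widest learning peak, 467 bp, and Slc2a1, the glucose transporter of the blood-brain barrier, the widest homecage peak, 1155 bp.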
